A study of Mus musculus with 13 samples.

Results

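The fibroblasts of the involuting mammary gland were compared with those of the lactating gland, using 1 droplet single-cell RNA library for each stage. A barcode was taken as a fibroblast when it held 500 to 7500 genes, at most 10% mitochondrial UMIs (unique molecular identifiers, 1 per captured RNA molecule) and at least 50 UMIs of Dcn, Lum and Col1a2 per 10000. It also had to hold no UMI of Epcam, Pecam1, Rgs5, Sox10, Ptprc or Myog, which mark epithelium, endothelium, pericytes, Schwann cells, leukocytes and muscle. This left 8454 of 9525 barcodes at lactation and 9863 of 11483 at involution. Together these were 18317 of the 100523 barcodes that met the same limits in all 13 libraries of the series. Both libraries came from wildtype C57BL/6 females. Stromal cells had been sorted as negative for CD24 and for the lineage markers CD31, CD45 and TER-119, from 2 females per condition. The lactating glands were taken at day 10 of lactation, and the involuting glands 4 days after nursing dams were separated from their pups. Reference libraries came from puberty (labelled 4 weeks), the adult virgin (9 weeks) and pregnancy (day 14.5). Placebo and hormone-treated libraries, also used for reference, came from mice labelled 9 weeks old. Because each stage was a single pooled library, no test between the stages was possible. Intervals given with levels and ratios are 95% exact intervals that cover counting error only, and differences between animals or library preparations cannot be told apart from differences between the stages.

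During lactation the gland is filled with secretory alveoli, and weaning starts involution, in which the alveolar epithelium dies, the basement membrane and surrounding matrix are remodelled and adipocytes refill the stroma. Fibroblasts lay down and degrade much of that matrix, and they also release chemokines and complement factors. Cells that lack sterols activate the transcription factor SREBP2, which drives the genes of cholesterol synthesis and uptake, whereas sterol excess acts through LXR on efflux transporters. Interferon gamma, a lymphocyte cytokine, acts through transcription factors such as IRF1 on guanylate-binding proteins, immunity-related GTPases, CXCR3 ligands and antigen presentation genes.

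Fibroblasts carried 63009851 UMIs at lactation and 74287093 at involution, with medians of 7105 and 7293 UMIs and 2464 and 2388 genes per cell. Levels are given as CPM, the UMIs of a gene per 1000000 UMIs summed over the fibroblasts of a library, with 8 milk protein genes left out of the total. All 10 fibroblast identity genes were within 2-fold, and their summed level was 55720 CPM at lactation and 51750 CPM at involution. Dcn, Lum and Col1a2, on which the barcodes were selected, are among the 10. Markers of other cells were low. The summed level was 10.3 and 15.04 CPM for luminal epithelium, 6.08 and 17.5 CPM for endothelium, and 6.80 and 15.1 CPM for leukocytes, at lactation and involution respectively. It was 30.4 and 30.4 CPM for pericytes, 31.3 and 36.2 CPM for Schwann cells, and 42.7 and 46.4 CPM for keratinocytes. All but the keratinocyte list hold a marker that the barcode rule excluded, so their sums are partly set by that rule. Milk protein RNA took 0.0872% of fibroblast UMIs at lactation, where 84.0% of the fibroblasts held at least 1 such UMI, and 0.00134% at involution. The lactation and involution libraries shared 37 barcodes, 24 of them fibroblasts in both, and the other pairs of the 5 stage libraries shared 30 to 50. Gm42418, a transcript that overlaps ribosomal RNA, stood at 17664 CPM at lactation and 12921 CPM at involution, against at most 3313 CPM at the 3 other stages. The part of these differences in the results below was not tested beyond the values given.

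Of 7820 genes with a mean of at least 10 CPM, 118 (1.51%) were at least 2-fold higher at involution and 75 (0.959%) at least 2-fold lower. Past 4-fold, 19 were higher and 18 lower. The median log2 ratio of all counted genes was -0.12, so a gene at the middle of the distribution was slightly lower at involution. With median of ratios size factors, which bring that median to 0.00, the split was 158 higher and 52 lower (75.2% higher of those called, against 61.1%). Replicate libraries of placebo and hormone-treated mice in the series show the spread between libraries of the same condition. The replicate pairs of hyperplasia and tumour were not summarised. Between the placebo libraries, 5 genes (0.0652%) were at least 2-fold higher in library 1 and 30 (0.391%) in library 2, none of them past 4-fold. Between the libraries of mice given MPA+E, a progestin with estradiol, 17 genes (0.221%) were higher in library 1 and 108 (1.4%) in library 2, with 3 and 4 past 4-fold. Of the genes called here, 20 of the 118 higher (16.9%) and 2 of the 75 lower (2.67%) were also past 2-fold in a replicate pair, against 1.73% of all counted genes.

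**Figure D1:**
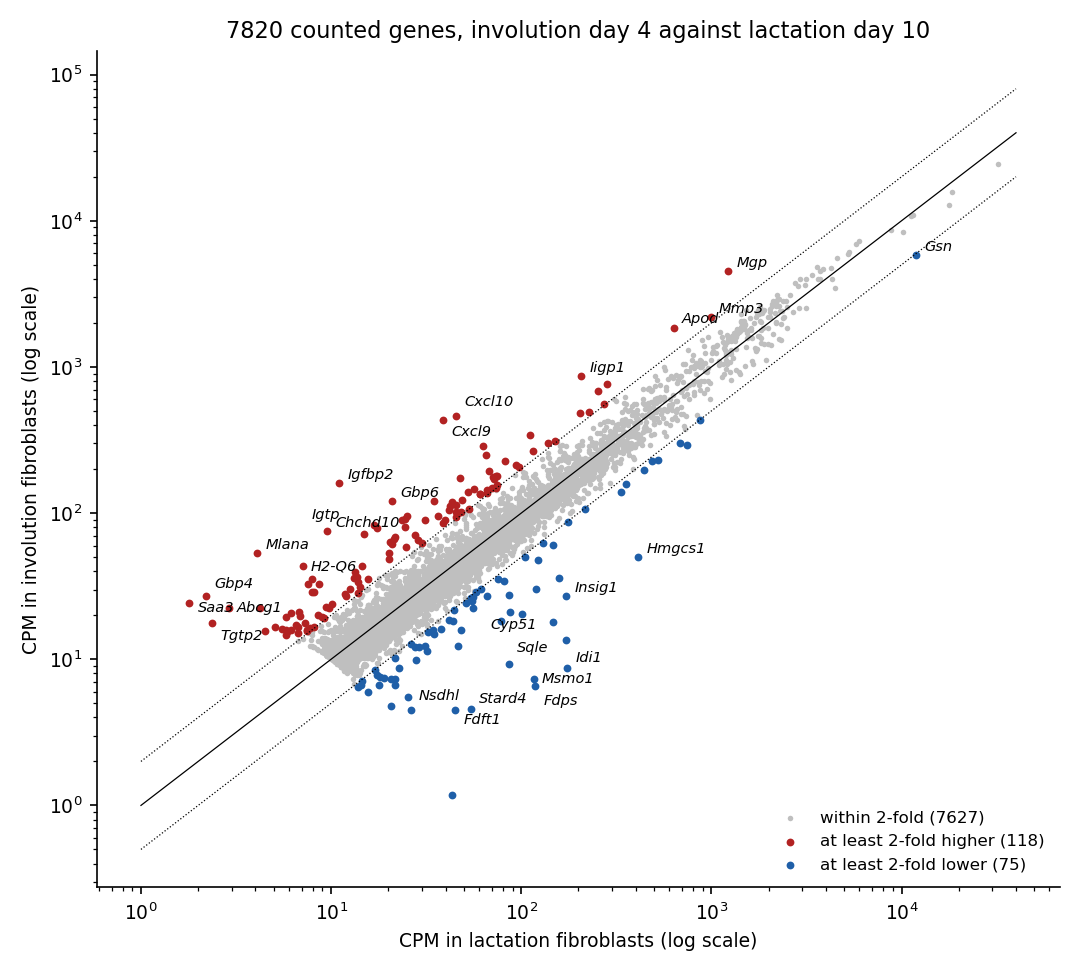
CPM of each of 7820 genes in fibroblasts at lactation (x axis) and involution (y axis), both on log scales, each point a gene; the solid line marks equality and the dotted lines 2-fold. The points furthest under the dotted lines are genes of cholesterol synthesis and transport, among them Idi1 at 175 and 8.71 CPM, and the furthest above are Igfbp2, Saa3, Mlana, Gbp4, Cxcl9 and Cxcl10.

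The genes furthest below their lactation level at involution were those of cholesterol synthesis. Of 21 enzymes of the pathway, 16 passed the limit on mean level, and 14 of these were at least 2-fold lower at involution (against 0.959% of all genes), with a median log2 ratio of -2.79 where all counted genes had -0.12. The other 2, Lbr and Ebp, were lower by 1.79-fold and 1.44-fold. The list was put together after the values had been seen, so its count is a description. Several of the 14, among them Idi1, Fdps, Msmo1 and Sqle, were under 10 CPM at involution and passed the limit through their lactation level. The 21 enzymes together stood at 1578 CPM at lactation and 250.15 CPM at involution, against 422, 397 and 317 CPM at puberty, in the adult virgin and in pregnancy. Lactation was the highest of the 5 stages for all 16 counted enzymes and involution the lowest for 14. Among all counted genes, lactation was above puberty, adult and pregnancy for 49.2% and involution below all 3 for 37.3%.

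Hmgcs1, which makes HMG-CoA at the entry of the pathway, was at 412 CPM (407 to 417) at lactation and 50.2 CPM (48.6 to 51.8) at involution, 8.22-fold lower (7.94 to 8.51). Its level was 53.1 to 67.5 CPM at the other stages, close to the involution level. Idi1, the isopentenyl diphosphate isomerase, had 175 CPM (172 to 178) at lactation and 8.71 CPM (8.05 to 9.41) at involution, a 20.1-fold difference. Fdps, which makes farnesyl diphosphate, had 118 and 6.53 CPM (18.1-fold). The largest replicate ratio among them was 1.45 for Fdps between the placebo libraries and 1.39 for Hmgcs1 between the MPA+E libraries.

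The later, sterol steps of the pathway showed the same direction. Sqle, the squalene epoxidase, was at 85.8 CPM at lactation and 9.28 CPM at involution (9.25-fold). Cyp51, which removes a methyl group from lanosterol, was at 147 and 17.9 CPM (8.25-fold). Msmo1, the next demethylating oxidase, was at 116 and 7.35 CPM (15.8-fold). The 5 enzymes under the limit on mean level were also lower at involution. Mvd was at 10.1 and 2.13 CPM, Lss at 8.04 and 1.36 CPM, Dhcr7 at 8.56 and 2.92 CPM, Acat2 at 9.85 and 4.50 CPM, and Tm7sf2 at 3.83 and 0.713 CPM. Over the 16 counted enzymes the median log2 ratio was 0.36 between the placebo libraries and 0.24 between the MPA+E libraries.

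**Figure D2:**
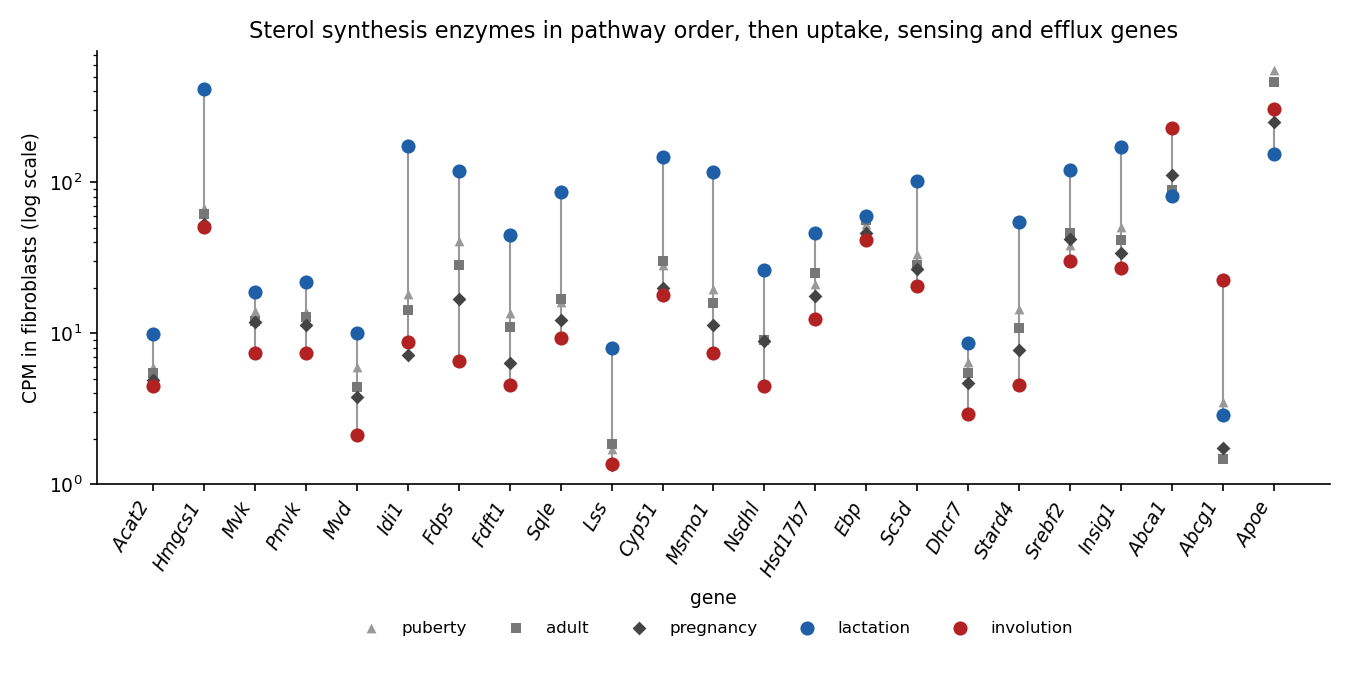
CPM (log scale) of cholesterol synthesis enzymes in pathway order, followed by uptake and sensing genes and by the efflux genes Abca1, Abcg1 and Apoe, in the fibroblasts of 5 stages with 1 library each; grey lines join lactation to involution. Lactation is the highest point for each synthesis enzyme drawn, for example 412 CPM for Hmgcs1 against at most 67.5 CPM at any other stage, whereas Abca1 and Abcg1 are highest at involution.

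Several genes of sterol uptake and sensing were lower at involution as well. Stard4, a carrier of cholesterol between membranes, was at 54.4 and 4.55 CPM (11.9-fold). Insig1, which holds SREBP in the endoplasmic reticulum and is itself an SREBP target, was at 172 and 27.1 CPM (6.33-fold), and Srebf2, which encodes SREBP2, at 120 and 30.2 CPM (3.97-fold). Of 10 counted genes of this group 5 were at least 2-fold lower (against 0.959% of all genes) and none higher. This list, too, was put together after the values had been seen. Stard4 was under 10 CPM at involution and passed the limit on mean level through lactation, so the count is a description. Scap, the SREBP escort, and Npc1, the lysosomal cholesterol exporter, were within 2-fold at 18.9 and 20.3 CPM and at 39.4 and 40.0 CPM.

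Fatty acid genes differed less. Of 14 counted, 6 were at least 2-fold lower (against 0.959% of all genes) and none higher, with a median log2 ratio of -0.90. The list was put together after the values had been seen. Pcyt2 was among those that passed the limit on mean level through lactation, so the count is a description. Fads1, a fatty acid desaturase, was at 85.7 and 27.7 CPM (3.09-fold), Elovl6, an elongase, at 48.1 and 15.8 CPM (3.05-fold), and Fasn, the fatty acid synthase, at 51.4 and 24.2 CPM (2.12-fold). Pcyt2, of phosphatidylethanolamine synthesis, was at 20.6 and 4.77 CPM (4.32-fold). Scd1, the stearoyl-CoA desaturase, was higher within 2-fold, at 62.5 CPM at lactation and 94.2 CPM at involution. Among fibroblasts without a milk UMI, Fasn was at 47.3 and 24.4 CPM, a ratio of 0.52 (0.46 to 0.58) that was within 2-fold. That subset holds 1353 of 8454 lactation but 9132 of 9863 involution fibroblasts, so here and below it changes mostly the lactation side.

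Both efflux transporters of sterol were higher, and they were the only 2 of 9 counted genes of sterol efflux and LXR at least 2-fold higher (against 1.51% of all genes). Of the 9, 5 had a ratio above 1 and 4 below. The list was put together after the values had been seen. Abcg1 was under 10 CPM at lactation and passed the limit on mean level through involution, so the count is a description. Abca1, which loads cholesterol onto lipoprotein, was at 81.7 CPM at lactation and 228 CPM at involution, 2.79-fold higher (2.71 to 2.88), and involution was above the 84.6 to 111 CPM of the other stages. Abcg1, the second efflux transporter, was at 2.89 and 22.4 CPM, 7.75-fold higher (6.65 to 9.09), against 1.46 to 3.49 CPM elsewhere. Apoe, a lipoprotein component, was at 153 and 305 CPM, just within 2-fold at 1.98 (1.94 to 2.03), and was higher still at puberty and in the adult, at 550.2 and 464 CPM. The Apoe ratio was 1.23 (1.18 to 1.29) in fibroblasts without a milk UMI. Both transporters are known LXR targets. Nr1h2 and Nr1h3, which encode the LXR receptors, were within 2-fold at 28.3 and 26.3 CPM and at 20.9 and 18.7 CPM.

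Fewer fibroblasts held a UMI of the sterol synthesis genes at involution. To set cells of unequal depth side by side, each was thinned to 2000 UMIs, which left out 124 shallower fibroblasts at lactation and 237 at involution. At least 1 UMI of the 21 enzymes was then found in 85.7% of 8330 lactation fibroblasts and 37.2% of 9626 involution fibroblasts, and at least 5 UMIs in 23.1% and 0.218%. Hmgcs1 alone was found in 42.9% (41.9 to 44.0) and 8.79% (8.23 to 9.37), or in 72.1% and 26.0% of the cells before thinning. In endothelial barcodes, which also use these genes, Hmgcs1 was found in 10.3% of 29 cells at lactation and 13.5% of 74 at involution, at medians of 2609 and 2402 UMIs before thinning. Those cells make sterols too, so their share is not a background.

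**Figure D3:**
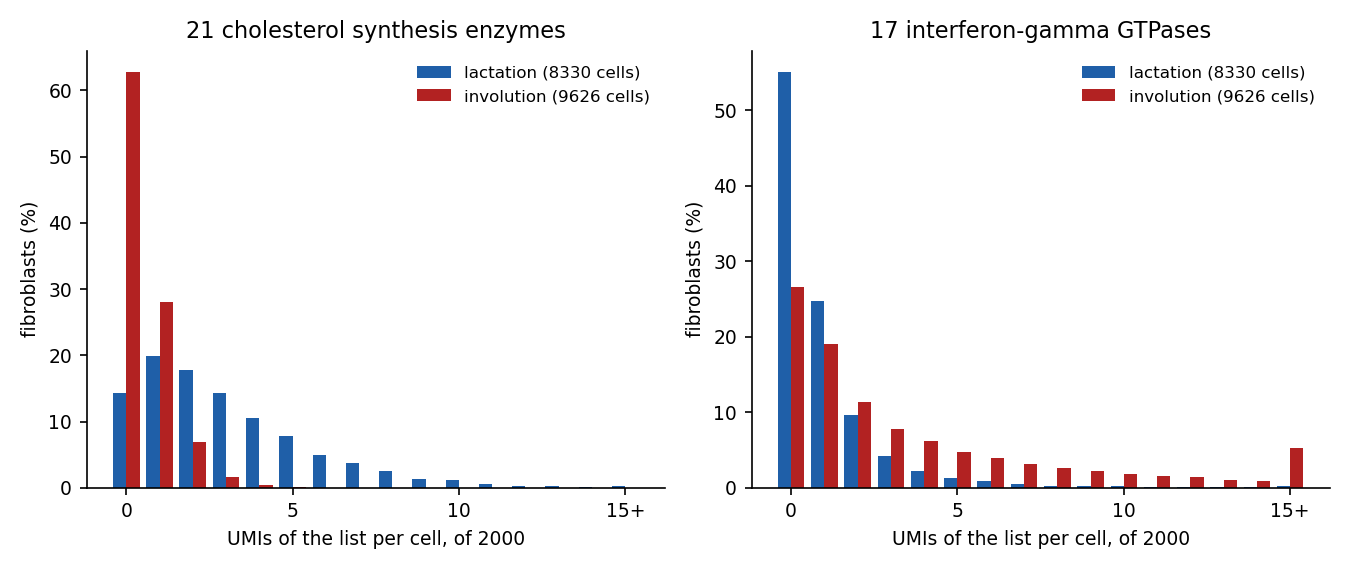
Share of fibroblasts (y axis, percent) by the number of UMIs of 21 cholesterol synthesis enzymes (left) and 17 interferon-gamma-induced GTPases (right) in each cell thinned to 2000 UMIs (x axis, the last bar holds 15 or more), for 8330 lactation and 9626 involution cells. Enzyme UMIs were absent from 14.3% of lactation and 62.8% of involution cells, and GTPase UMIs from 55.1% and 26.6%.

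The same direction was seen when cells were split by markers of fibroblast states. Gates were set on UMIs of thinned cells: at least 3 of Pi16 and Dpp4, at least 2 of Gdf10 and Clec11a, at least 2 of Thbs4 and Cilp, or none of the 6. In lactation these held 3004, 256, 1190 and 1529 cells, and in involution 2348, 371, 2028 and 1926. Hmgcs1 was 10.6-fold lower in the Pi16 and Dpp4 gate, at 416 and 39.4 CPM. It was 9.59-fold lower in the Gdf10 and Clec11a gate, 6.49-fold lower in the Thbs4 and Cilp gate and 7.77-fold lower in cells with none of the 6. Of all 75 lower genes, 74 had a ratio below 1 in all 4 gates and 33 (44.0%, against 0.422% of all counted genes) were at least 2-fold lower in all 4. A ratio below 1 in all 4 was found for 39.8% of all counted genes, and the 75 were called on these same cells, so the counts describe and test nothing.

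Other cells of the same libraries were few. In 114 lactation and 190 involution barcodes with Rgs5, a pericyte marker, the 21 enzymes summed to 1669 and 312 CPM, close to the fibroblast values. In 59 and 229 barcodes with Pecam1, an endothelial marker, they summed to 520 and 353 CPM. These are sums over few cells of 1 library each. The epithelial barcodes numbered 4 and 12 and the leukocyte barcodes 7 and 12, too few to compare.

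Since these genes are known SREBP2 targets, the promoter of Hmgcs1 is shown. In RefSeq promoters (GRCm38.p6, 250 bases before to 50 after the start of transcription) the sterol regulatory element-like motif TCACNCCAC was searched on both strands. Hmgcs1 was the only one of 24 genes of synthesis, uptake and sensing with a promoter in the table that held it. The motif was found in 1.44% of all 27025 genes with a promoter and in 1.30% of 6221 counted genes. The promoter lies at chr13:119690101-119690400 on the + strand, and the motif, in capitals, begins 137 bases before the start.
Hmgcs1: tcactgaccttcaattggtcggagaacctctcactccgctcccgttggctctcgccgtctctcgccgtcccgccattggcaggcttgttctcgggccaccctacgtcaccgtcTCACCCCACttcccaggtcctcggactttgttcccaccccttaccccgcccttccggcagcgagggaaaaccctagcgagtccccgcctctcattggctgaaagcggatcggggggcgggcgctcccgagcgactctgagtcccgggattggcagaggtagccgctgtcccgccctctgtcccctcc
Among the same 24 genes the E-box CACGTG was found in 5 (20.8%), against 8.09% of all genes in the table and 12.4% of counted genes.

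The largest group of higher genes was that known to be induced by interferon gamma. Of 17 GTPases in the table, 13 were counted and all 13 were at least 2-fold higher at involution (against 1.51% of all genes), with a median log2 ratio of 2.18. Their list was chosen after the values had been seen. Gbp4, Gbp5, Gbp9 and Tgtp2 were under 10 CPM at lactation and passed the limit on mean level through involution, so the count is a description. Summed, the 17 stood at 484 CPM at lactation and 1961 CPM at involution, against 1010 CPM at puberty, 921 CPM in the adult and 902 CPM in pregnancy. Involution was the highest of the 5 stages for all 13 and lactation the lowest for 10, so both levels lay outside those of the other stages for most of them. Among all counted genes, involution was above puberty, adult and pregnancy for 40.6% and lactation below all 3 for 31.2%.

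Iigp1, an immunity-related GTPase that attacks vacuoles of intracellular parasites, was the most abundant, at 207 CPM (203 to 210) at lactation and 863 CPM (856 to 869) at involution, 4.17-fold higher (4.09 to 4.25). It also differed 2.01-fold between the placebo libraries. Gbp2, a guanylate-binding protein, was at 63.0 and 286 CPM, 4.53-fold higher (4.38 to 4.69), against 98.8 to 115 CPM at the other stages. Its replicate ratios were 1.02 in placebo and 0.68 in MPA+E. Gbp4 was at 2.19 CPM (1.84 to 2.59) and 27.1 CPM (25.9 to 28.3), 12.4-fold higher, and Gbp6 at 20.8 and 120 CPM (5.78-fold). In fibroblasts without a milk UMI, Gbp4 had 10 UMIs at lactation and a ratio of 23.4 (12.7 to 48.95). Igtp was at 16.8 and 82.7 CPM (4.93-fold), Irgm1 at 34.9 and 122 CPM (3.49-fold) and Tgtp2 at 2.37 and 17.6 CPM (7.46-fold). Many of these genes have near-identical neighbours, so their single values are less certain than the sum. The median log2 ratio of the 13 was 0.49 between the placebo libraries and -0.02 between the MPA+E libraries.

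The ligands of CXCR3, which draw activated T cells, were among the largest differences. Cxcl9 was at 38.9 CPM (37.4 to 40.5) at lactation and 436 CPM (431 to 440) at involution, 11.2-fold higher (10.7 to 11.7). Cxcl10 was at 45.4 CPM (43.8 to 47.1) and 459 CPM (454 to 464), 10.1-fold higher (9.72 to 10.5). Involution exceeded the 60.9 to 131 CPM of Cxcl9 at the other stages. For Cxcl10, puberty was higher at 638 CPM, and it was the lactation level that stood apart from the 267 to 638 CPM elsewhere. Cd274, which encodes the checkpoint ligand PD-L1, was at 8.12 and 28.7 CPM (3.53-fold), against 2.99 to 4.51 CPM at the other stages. The ratio between the placebo libraries was 1.42 for Cxcl9, 1.72 for Cxcl10 and 1.26 for Cd274.

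Of 12 counted genes of interferon receptors and signalling, 3 were at least 2-fold higher (against 1.51% of all genes). This list was also chosen after the values had been seen, so its count is a description. The median log2 ratio of the 12 was 0.30, and 0.31 between the placebo libraries. Irf1, a transcription factor of the response, was at 93.9 and 212 CPM (2.26-fold), and Socs1, the feedback inhibitor, at 45.3 and 114 CPM (2.51-fold). At puberty Irf1 was close to its involution level, at 209 CPM, and Socs1 was higher, at 211 CPM. Between the placebo libraries the ratio was 1.92 for Irf1 and 1.52 for Socs1. Irf1 was within 2-fold, at a ratio of 1.93 (1.81 to 2.06), in fibroblasts without a milk UMI. The receptor chain Ifngr1 was lower within 2-fold, at 245 and 148 CPM, and Ifngr2, Ifnar1, Ifnar2, Jak1 and Jak2 had ratios of 0.85 to 1.23. No interferon ligand passed the limit on mean level. Ifng itself was at 0.10 CPM at lactation and 0.08 CPM at involution in these fibroblasts.

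Genes of antigen presentation were higher in part. Of 11 counted genes of MHC class I and its loading, 5 were at least 2-fold higher (against 1.51% of all genes), with a median log2 ratio of 0.93. The peptide transporter Tap1 was at 20.5 and 63.9 CPM (3.12-fold), and the immunoproteasome subunits Psmb9 and Psmb8 at 20.9 and 61.8 CPM (2.96-fold) and at 60.4 and 135 CPM (2.23-fold). H2-Q7, a class I gene with close relatives, was at 24.4 and 91.7 CPM. The class II genes stayed under the limit and summed to 8.70 and 26.9 CPM.

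Many genes of the wider interferon response were also higher. Of 19 counted interferon-induced genes, 10 were at least 2-fold higher at involution (against 1.51% of all genes) and none lower, with a median log2 ratio of 1.06. Ifit1, an antiviral RNA-binding protein, was at 65.2 and 249.6 CPM (3.83-fold), but at 221 to 361 CPM at the other stages. Rsad2, or viperin, was at 14.8 and 71.6 CPM (4.83-fold), against 70.0 to 105 CPM elsewhere, and Isg15 at 74.7 and 155 CPM, against 241 to 376 CPM. Ifit1 and Rsad2 at involution thus lay within the range of the other stages and Isg15 below it. Summed over 20 genes, the list stood at 4859 CPM at puberty, 4231 CPM in the adult, 1671 CPM at lactation and 3151 CPM at involution.

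**Figure D4:**
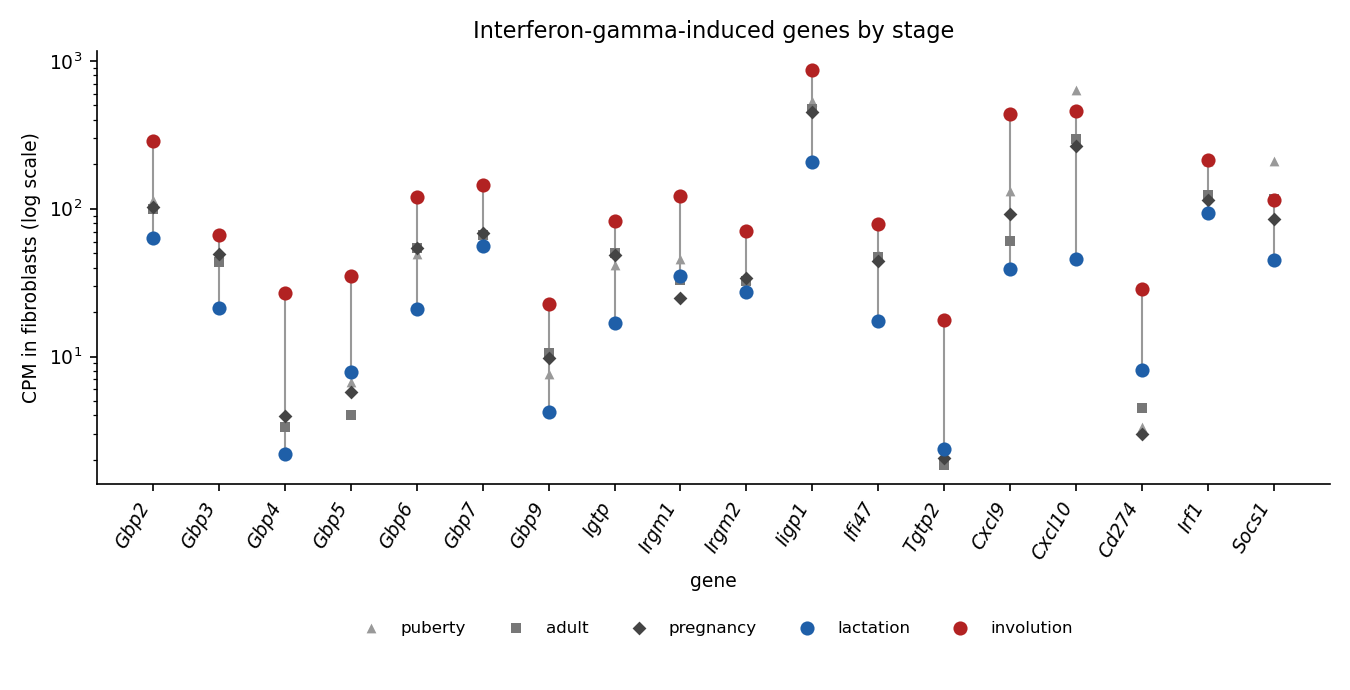
CPM (log scale) of 13 interferon-gamma-induced GTPases, Cxcl9, Cxcl10, Cd274, Irf1 and Socs1 in the fibroblasts of 5 stages with 1 library each; grey lines join lactation to involution. Involution is the highest point for all 13 GTPases, and lactation is the lowest for 10 of them, whereas Cxcl10 and Socs1 are highest at puberty.

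UMIs of these interferon-induced genes were uneven between cells. After thinning to 2000 UMIs, Cxcl9 was found in 1.96% (1.67 to 2.28) of lactation and 17.7% (17.0 to 18.5) of involution fibroblasts, and in 4.33% and 26.7% unthinned. Positive cells held a mean of 3.44 and 4.56 UMIs. In thinned endothelial barcodes, which make Cxcl9 too, the share was 37.9% of 29 and 62.2% of 74. Iigp1 was found in 19.4% and 49.5% of thinned cells (36.6% and 66.2% unthinned). GTPase UMIs numbered 10 or more in 0.708% of lactation and 12.2% of involution cells. Within involution, 1706 thinned cells with a Cxcl9 UMI had Cxcl10 at 1286 CPM against 274 CPM in 7920 cells without one, and Gbp2 at 691 against 189 CPM. These cells were set apart by Cxcl9 itself, so the values describe them and test nothing. Endothelial barcodes also had these genes at higher levels in the involution library, with Cxcl9 at 392 and 1800 CPM and Gbp2 at 112 and 431 CPM, and Rgs5 barcodes had Gbp2 at 27.9 and 167 CPM.

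Cxcl9 and Gbp2 were higher in each gate. Cxcl9 was 22.9-fold higher in Pi16 and Dpp4 cells, at 6.93 and 159 CPM. It was 13.8-fold higher in Gdf10 and Clec11a cells, 30.7-fold higher in Thbs4 and Cilp cells, and 6.65-fold higher, from 118 to 786 CPM, in cells with none of the 6 markers. Gbp2 was 3.26-fold to 5.92-fold higher. Of all 118 higher genes, 114 had a ratio above 1 in all 4 gates and 44 (37.3%, against 0.563% of all counted genes) were at least 2-fold higher in all 4. A ratio above 1 in all 4 was found for 13.95% of all counted genes. The 118 were called on the same cells that the gates split, so these counts are a description.

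The promoters of Cxcl9, Cxcl10 and Gbp2 are shown because many genes of this group hold the same motif. That of Ifit1, from the wider interferon list and not in the interferon-gamma set below, is shown beside them. The letters GAAANNGAA, the core of the interferon-stimulated response element to which STAT and IRF complexes are known to bind, were searched on both strands of the RefSeq promoters. The motif was chosen after the gene list. It was found in 13 of 17 genes (76.5%) of an interferon-gamma set with a promoter in the table, made of the GTPases, the CXCR3 ligands and signalling and checkpoint genes such as Cd274, Irf1 and Socs1. Among all genes in the table its share was 9.76%, among counted genes 8.82%, among the genes called higher 31.4% (27 of 86) and among those called lower 1.75% (1 of 57). Cxcl9 has it 175 bases before the start (chr5:92328030-92328329, - strand), Cxcl10 213 bases (chr5:92348840-92349139, - strand), Gbp2 58 bases (chr3:142620413-142620712, + strand) and Ifit1 3 times, at 109, 103 and 84 bases (chr19:34640639-34640938, + strand). Capitals mark the motif on either strand.
Cxcl9: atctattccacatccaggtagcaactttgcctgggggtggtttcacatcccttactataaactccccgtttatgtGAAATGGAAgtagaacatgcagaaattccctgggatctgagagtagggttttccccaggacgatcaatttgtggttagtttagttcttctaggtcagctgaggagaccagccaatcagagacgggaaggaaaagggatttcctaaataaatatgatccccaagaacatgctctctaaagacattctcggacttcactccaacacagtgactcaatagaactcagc
Cxcl10: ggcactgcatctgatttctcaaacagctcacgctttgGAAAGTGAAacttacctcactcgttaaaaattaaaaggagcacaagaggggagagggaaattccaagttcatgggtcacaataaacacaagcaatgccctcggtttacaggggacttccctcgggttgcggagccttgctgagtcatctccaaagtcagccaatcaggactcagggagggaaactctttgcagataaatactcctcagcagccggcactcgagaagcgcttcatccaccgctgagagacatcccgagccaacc
Gbp2: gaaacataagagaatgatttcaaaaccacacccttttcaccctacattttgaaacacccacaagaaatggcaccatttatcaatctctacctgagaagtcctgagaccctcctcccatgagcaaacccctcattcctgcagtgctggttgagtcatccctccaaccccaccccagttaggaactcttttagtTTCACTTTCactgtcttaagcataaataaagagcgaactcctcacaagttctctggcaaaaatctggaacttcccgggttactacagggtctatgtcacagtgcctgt
Ifit1: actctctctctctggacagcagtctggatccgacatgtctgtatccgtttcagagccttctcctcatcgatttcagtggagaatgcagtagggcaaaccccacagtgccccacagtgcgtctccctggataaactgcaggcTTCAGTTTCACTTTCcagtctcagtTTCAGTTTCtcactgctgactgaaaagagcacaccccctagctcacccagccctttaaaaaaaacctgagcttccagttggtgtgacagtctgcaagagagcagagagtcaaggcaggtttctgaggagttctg
The motif TTCNNNGAA, like the gamma-activated site, was found in 8 of the 17 genes of the interferon-gamma set (47.1%). Its share was 9.55% among all and 7.86% among counted genes. None of the promoters shown for Cxcl9, Cxcl10, Gbp2 and Ifit1 held it. The STAT palindrome TTCCNGGAA was found in 6 of the 86 promoters called higher (6.98%) and in none of the 57 called lower, against 1.35% of all and 1.49% of counted genes. The AP-1 motif TGANTCA was found in 15 (17.4%) and 3 (5.26%), against 8.97% of all and 6.22% of counted genes. For NF-kB only the exact string GGACTTTCC was searched, and other forms of the motif were not. That string was in none of either, but it is rare in promoters of this length, at 0.40% of all and 0.514% of counted genes.

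Several chemokines and a few acute phase genes were higher. Of 14 counted chemokines, 7 were at least 2-fold higher (against 1.51% of all genes) and 1 lower, with a median log2 ratio of 0.94. Cxcl9 and Cxcl10 are among the 7, beside Ccl2, Ccl8, Ccl19, Cxcl2 and Cxcl16. Ccl8, which attracts monocytes, was at 47.5 and 173 CPM (3.63-fold), and Ccl19, which draws dendritic cells and lymphocytes, at 24.3 and 80.4 CPM (3.31-fold). Ccl2, which also draws monocytes, was at 272 and 558 CPM (2.05-fold). Cxcl2, which draws neutrophils, was at 52.5 and 140 CPM (2.66-fold). Ccl2 and Cxcl2 also differed between replicate libraries, by ratios of 0.71 and 0.25 in placebo and 0.42 and 0.24 in MPA+E. Cxcl13, which draws B cells, was the lower one, at 158 and 35.8 CPM, and its placebo ratio was 0.33.

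Of 14 counted genes of the acute phase and STAT3 response, 3 were at least 2-fold higher (against 1.51% of all genes), Saa3, Lbp and Il6, with a median log2 ratio of 0.39. Saa3, an acute phase apolipoprotein, was at 1.79 CPM (1.48 to 2.16) at lactation and 24.1 CPM at involution, 13.4-fold higher (11.1 to 16.4). Saa3 thus passed the limit on mean level through its involution level. It was found in only 0.144% and 1.10% of thinned cells (0.402% and 1.92% unthinned), and replicate libraries differed by ratios of 0.22 and 0.38. In Pi16 and Dpp4 cells it was at 2.25 and 1.57 CPM, a ratio of 0.70 (0.42 to 1.15), whereas in cells with none of the 6 markers it was at 0.765 and 48.2 CPM. Il6, a cytokine upstream of STAT3, was at 116 and 265 CPM (2.29-fold), Lbp, which binds lipopolysaccharide, at 46.5 and 100.4 CPM (2.16-fold), and Serpina3n, a protease inhibitor, at 31.0 and 89.8 CPM (2.90-fold). Among fibroblasts without a milk UMI the ratio was 1.54 (1.46 to 1.62) for Il6 and 3.45 (2.67 to 4.54) for Saa3. With each cell weighted equally, Lbp came under 2-fold, at a log2 ratio of 0.96.

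Of 11 counted complement genes, 3 were at least 2-fold higher (against 1.51% of all genes) and 1 lower (against 0.959%). Complement factors C2, C4b and Cfb were at 48.4 and 101 CPM, 138 and 304 CPM, and 42.3 and 111 CPM, and Cd55, which protects cells from complement, was lower at 523 and 229.5 CPM. Icam1 and Vcam1, leukocyte adhesion molecules, were at 67.5 and 194 CPM (2.88-fold) and at 36.4 and 95.1 CPM (2.61-fold). Without a milk UMI the ratio was 1.79 (1.64 to 1.97) for C2, 0.647 (0.622 to 0.672) for Cd55 and 1.98 (1.85 to 2.13) for Icam1, all within 2-fold. With cells weighted equally, the log2 ratios of C2 and C4b were 0.95 and 0.91.

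Among matrix genes, single members differed. None of 7 counted fibrillar collagens was past 2-fold, where 2.47% of all counted genes were, in either direction, and Col1a1 was at 8770.4 CPM at lactation and 8706 CPM at involution. Of 8 counted matrix metalloproteinases 2 were at least 2-fold higher (against 1.51% of all genes). Mmp3, or stromelysin-1, was at 992 CPM (984 to 999.8) and 2204 CPM (2194 to 2215), 2.22-fold higher (2.20 to 2.24), and at 308, 537 and 716 CPM at puberty, in the adult and in pregnancy. Mmp11, stromelysin-3, was at 23.5 and 89.7 CPM (3.82-fold), against 5.48 to 11.9 CPM before lactation. Mmp2, or gelatinase A, and its activator Mmp14 were higher within 2-fold, at 1113 and 1720.3 CPM and at 355 and 556 CPM. The inhibitor Timp1 was higher too, at 41.9 and 105 CPM (2.50-fold), but within the 91.4 to 110.4 CPM of the other stages. Among fibroblasts without a milk UMI, Mmp3 was 1.77-fold higher (1.73 to 1.80).

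Mgp, matrix Gla protein, an inhibitor of calcification, was the most abundant of the 118 higher genes. It was at 1226 CPM (1217 to 1234) at lactation and 4534 CPM (4519 to 4550) at involution, 3.70-fold higher (3.67 to 3.73), and at 259 to 594 CPM at the other stages. It was found in 34.2% (33.2 to 35.2) and 57.5% (56.5 to 58.5) of thinned fibroblasts, or 47.2% and 72.0% unthinned. Positive cells held a mean of 6.77 and 15.5 UMIs. In endothelial barcodes the thinned share was 3.45% of 29 (0.09 to 17.8) and 35.1% of 74 cells (24.4 to 47.1). Over all 59 and 229 endothelial barcodes, Mgp was at 120 and 249 CPM. Whether this was RNA of those cells or free RNA was not tested, nor was the free part of the fibroblast share. The Thbs4 and Cilp gate had the highest level in both libraries, 3602 and 10482 CPM (2.91-fold), and it also held a larger share of thinned fibroblasts at involution, 21.1% against 14.3%, while the Pi16 and Dpp4 gate held 24.4% against 36.1%. These shares are partly set by the levels of the gating genes, with Thbs4 at 105 and 188 CPM and Pi16 at 1266 and 813 CPM. Whether the mix of cells differed was not tested. Mgp was 3.47-fold higher within the Pi16 and Dpp4 gate, 3.95-fold within cells with none of the markers and 1.46-fold within the Gdf10 and Clec11a gate.

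**Figure D5:**
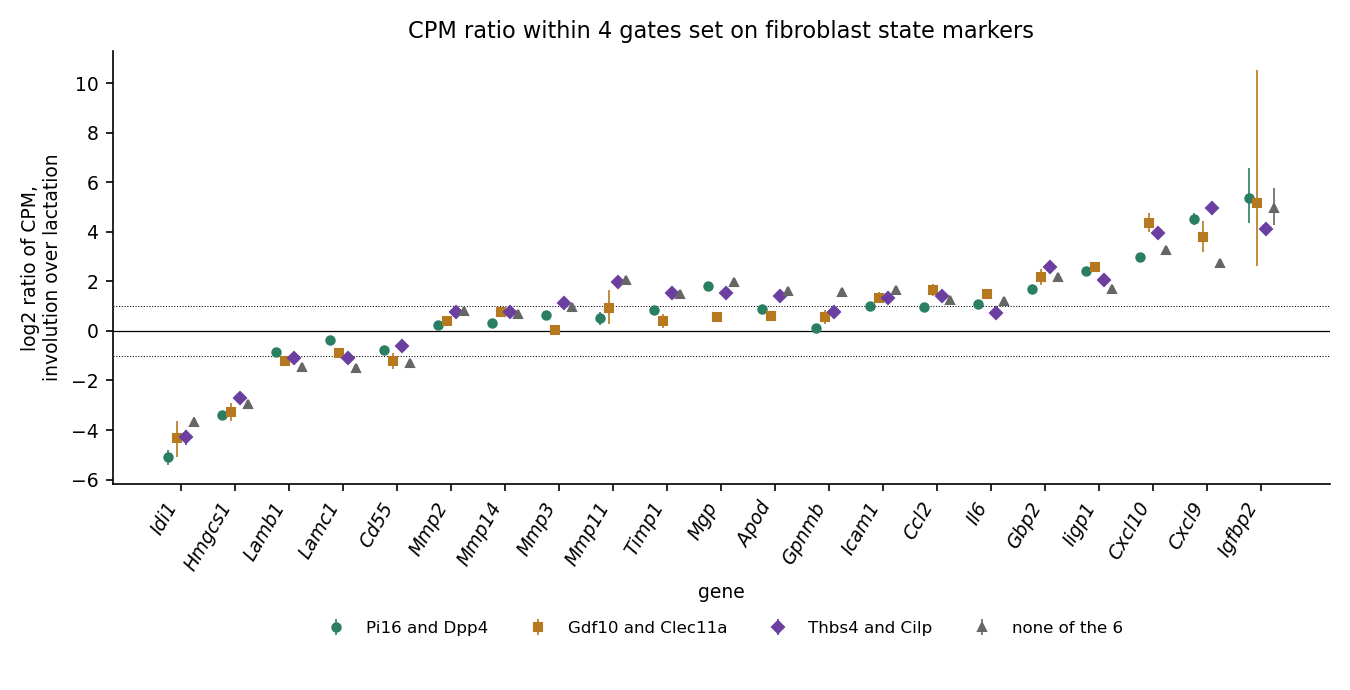
log2 ratio of CPM, involution over lactation (y axis), of 21 genes within 4 gates set on UMIs of Pi16, Dpp4, Gdf10, Clec11a, Thbs4 and Cilp in cells thinned to 2000 UMIs; bars are 95% exact intervals for counting error and dotted lines mark 2-fold. Sterol genes lie below and interferon genes above the 2-fold lines in all 4 gates, whereas Mmp3, Mmp11, Mgp, Timp1 and Gpnmb differ between gates, with Mmp3 at a ratio of 1.04 in Gdf10 and Clec11a cells and 2.17 in Thbs4 and Cilp cells.

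The matrix proteases also differed between gates. Mmp11 was 3.91-fold higher (3.51 to 4.36) in Thbs4 and Cilp cells and 4.12-fold higher (3.65 to 4.68) in cells with none of the markers, but 1.42-fold (1.19 to 1.68) in Pi16 and Dpp4 cells. Gpnmb, a glycoprotein of phagocytic and lysosome-stressed cells, was 2.93-fold higher in cells with none of the markers and 1.08-fold (0.97 to 1.20) in Pi16 and Dpp4 cells. Apod, a lipocalin that carries lipids, was 1.52-fold to 3.03-fold higher in the 4 gates, and stood at 634 and 1860 CPM in all fibroblasts. The differences between gates were not tested.

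Igfbp2, a binding protein of insulin-like growth factors, had the largest ratio of the higher genes. It was at 11.04 CPM (10.2 to 11.9) at lactation and 161 CPM (158 to 164) at involution, 14.6-fold higher (13.5 to 15.8), and at 1.70, 14.2 and 24.6 CPM at puberty, in the adult and in pregnancy. Replicate libraries differed by ratios of 1.31 in placebo and 0.47 in MPA+E. It was found in 0.348% and 6.42% of thinned cells (0.745% and 9.87% unthinned), with means of 4.31 and 4.52 UMIs in positive cells. The first mean is over 29 cells only. At least 3 UMIs were held by 0.108% of lactation and 3.18% of involution cells. In involution it was at 502 CPM in Thbs4 and Cilp cells against 15.7 to 45.2 CPM in the other gates. Among fibroblasts without a milk UMI it had 15 UMIs at lactation, and the ratio was 96.8 (58.6 to 173). Endothelial barcodes had it in 0 of 29 cells and 1.35% of 74. The 618 involution cells with Igfbp2 had Nkd2, a Wnt regulator, at 211 CPM against 18.5 CPM in 9008 cells without it, Ccn5, a matricellular protein, at 278 against 28.1 CPM, and Eln, elastin, at 2524 against 583 CPM. Stc2, a stanniocalcin that blocks the protease of IGF-binding proteins, was lower, at 78.3 and 18.4 CPM.

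Mlana and Chchd10 were 2 further genes with large ratios. Mlana, best known from melanocytes, was at 4.08 CPM (3.60 to 4.61) and 53.0 CPM (51.4 to 54.7), 12.99-fold higher, and was found in 0.864% and 8.32% of thinned fibroblasts (2.07% and 18.5% unthinned) and in no thinned endothelial cell. Chchd10, a mitochondrial protein, was at 9.51 and 75.7 CPM (7.96-fold), against 0.433 to 2.71 CPM at the other stages. In cells without a milk UMI the ratio was 7.59 (5.90 to 9.92) for Mlana and 4.99 (4.21 to 5.97) for Chchd10. Involution cells were also split by Mgp. In 4024 cells with at least 3 Mgp UMIs after thinning, Mlana was at 99.5 CPM, Chchd10 at 168 CPM, Mmp3 at 3895 CPM and Mmp11 at 177 CPM, against 10.4, 6.85, 604 and 21.2 CPM in 4087 cells with none. Both splits were made on one of the called genes and describe the cells without a test.

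Of 24 counted genes of fibronectin, elastic fibres and basement membrane, 2 were at least 2-fold lower (against 0.959% of all genes) and 22 within 2-fold, with a median log2 ratio of -0.47. Both were laminin chains, a list that was added after the values had been seen. Of 7 counted laminin chains all had a ratio below 1 (against 69.2% of all counted genes), and Lamb1 and Lamc1, chains common to most laminins, were the 2 at least 2-fold lower (against 0.959%). The median log2 ratio of the 7 was -0.94, and it was 0.20 between the placebo libraries and 0.40 between the MPA+E libraries. Lamb1 was at 683 CPM (677 to 690) at lactation and 304 CPM (299.8 to 308) at involution, 2.25-fold lower (2.21 to 2.29). Lamc1 was at 869 and 434 CPM, 2.00-fold lower (1.98 to 2.03), and under 2-fold in 8 of 15 alternative settings. The alpha chains Lama2 and Lama4 were at 724 and 378 CPM and at 388 and 202 CPM. Lactation was the highest of the 5 stages for 5 of the 7, where it was above puberty, adult and pregnancy for 49.2% of all counted genes. The involution levels of Lamb1 and Lama4 were within the range of the earlier stages. Lamc1 was 2.79-fold lower in cells with none of the markers and 1.30-fold in Pi16 and Dpp4 cells.

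Among the other lower genes were 3 of 12 counted genes of retinoid handling (against 0.959% of all genes). Stra6, a retinol receptor, was at 20.7 and 7.32 CPM, Aldh1a3, which makes retinoic acid, at 122 and 47.5 CPM, and Cyp26b1, which degrades it, at 21.8 and 6.62 CPM. Stra6 and Cyp26b1 were under 10 CPM at involution and passed the limit on mean level through lactation, so the count is a description. Among fibroblasts without a milk UMI, Aldh1a3 was at 67.5 and 46.1 CPM, within 2-fold, and Cyp26b1 at 35.5 and 6.79 CPM. Outside the lists, Gsn, gelsolin, an actin-severing protein, was the most abundant lower gene, at 11855 and 5814 CPM. Hsd11b1, which regenerates active glucocorticoid, was at 335 and 139 CPM and Tuba1a, an alpha tubulin, at 742 and 294 CPM. These 3 were singled out after their values had been seen.

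Of 39 gene lists, the 10 added ones aside, 14 had no member past 2-fold. With 2.47% of all counted genes past 2-fold, a count of 0 in lists of this size is near the background. Among them were the fibrillar collagens, TGF-beta and BMP genes (0 of 24 counted), cathepsins and lysosome genes (0 of 21), contractile genes (0 of 10), immediate early genes (0 of 21), and hypoxia and glycolysis genes (0 of 12). The markers of the 5 fibroblast states were mostly within 2-fold. Pi16 was at 1266 and 813 CPM, Dpp4 at 303 and 205 CPM, Thbs4 at 105 and 188 CPM, and Cilp at 510.4 and 567 CPM. In fibroblasts without a milk UMI these differences were smaller or of the other sign, with log2 ratios of -0.06 for Pi16, 0.01 for Dpp4, 0.17 for Thbs4 and -0.17 for Cilp. That subset keeps 1353 lactation and 9132 involution cells, and whether its lactation cells have another mix of states was not tested. Exceptions were Cd55, Icam1, Mmp3, Mgp and Stra6. In the lysosome group Ctsk, cathepsin K, had the second largest ratio at 505 and 861 CPM (1.70-fold), after Lgmn, legumain, at 32.8 and 60.5 CPM (1.84-fold).

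The called genes were also set against the 3 other stages. Of the 118 higher genes, involution was above puberty, adult and pregnancy for 91 (77.1%, against 40.6% of all counted genes), by at least 2-fold for 47 (39.8%, against 3.02%). Lactation was below all 3 for 71 of the 118 (60.2%, against 31.2%), by at least 2-fold for 29 (24.6%, against 0.946%). Of the 75 lower genes, lactation was above all 3 for 67 (89.3%, against 49.2%), by at least 2-fold for 38 (50.7%, against 3.67%). Involution was below all 3 for 44 of the 75 (58.7%, against 37.3%), by at least 2-fold for 8 (10.7%, against 0.371%). The genes were chosen by the ratio of these same libraries, so the counts are a description. Fdps was among these 8, at 6.53 CPM at involution against a lowest earlier level of 16.9 CPM.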

How the data were processed

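Single-cell RNA was measured in sorted stromal cells of 5 stages, of placebo and MPA+E treatment and of a tumour model, 13 libraries in all. The authors deposited filtered matrices of raw UMI counts per gene and barcode, with no normalization and 32285 genes each. The submitters' processing notes name Cell Ranger 6.1.2 and the mm10 build. The values were summed over fibroblast barcodes and divided by the total without milk protein genes. Genes with a mean of at least 10 CPM were compared, and called at 2-fold. Ratios have exact conditional binomial intervals and levels exact Poisson intervals, at 95%. Cells were thinned to 2000 UMIs where cells are counted. Doublets were not called in the values reported. As an alternative, cells with the highest Scrublet scores (scanpy 1.11.5) were removed, at a share of 0.8% for each 1000 barcodes. Named genes were the 12 highest and 12 lowest counted genes by ratio of CPM + 1 (milk protein, mitochondrial, Gm and Rik genes left out), the up to 4 largest of each list, the fibroblast state markers and the 5 most abundant, and further genes, among them Gpnmb, Gsn, Hsd11b1 and Tuba1a, were chosen after their values were seen. The members, lists and motifs were chosen with earlier results of these data known, and 10 lists were added after the values were seen. TMM factors came from edgeR 4.0.16. The calculation was tested on simulated data. Python 3.11.15 and scipy 1.17.1 were used. Depth was 63009851 and 74287093 fibroblast UMIs. Promoters came from RefSeq on GRCm38.p6, the mm10 assembly, and were found for 86 of 118 higher and 57 of 75 lower genes. Some genes are not reported here.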

Additional observations from a re-analysis of the deposited data

Results flagged for a closer look

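Milk protein genes were left out of the comparison, and their UMIs in fibroblast barcodes exceeded the adult level. They made up 0.0872% of fibroblast UMIs at lactation and 0.00134% at involution, against 9.48e-06% in the adult library and 0.00391% in pregnancy. Fibroblasts without such a UMI numbered 1353 at lactation, with a median of 6386 UMIs, against 7236 in the 7101 cells with one.

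Erythroid genes (Alas2, Hba-a1, Hba-a2, Hbb-bs and Hbb-bt) summed to 9.10 CPM in lactation and 0.215 CPM in involution fibroblasts, against 0.176 CPM in the adult and 48.5 CPM at puberty. Class II genes of the MHC, which lay under the limit on mean level, summed to 26.9 CPM in involution fibroblasts against 6.65 CPM in the adult and 8.70 CPM at lactation. H2-Ab1 was at 6.35 CPM and Cd74 at 5.87 CPM, beside leukocyte markers that summed to 15.1 CPM.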

How the results depend on the processing

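The counts of 118 higher and 75 lower genes were recomputed under 15 alternatives, 2 of them chosen after seeing the data. Counting genes from a mean of 1 CPM gave 312 higher and 172 lower, and no filter with ratios of CPM + 1 gave 231 higher and 106 lower. The other alternatives gave 101 to 158 higher and 52 to 79 lower. Higher genes were 61.1% of those called, and 75.2% with median of ratios size factors and 74.0% with TMM factors, which moved the median log2 ratio by 0.12 and 0.11. Among 88 called genes followed, none changed direction and 17 came under 2-fold in at least 1 alternative. Fibroblasts without a milk UMI kept 85 of the higher and 58 of the lower genes, and moved Saa3 from 3.75 to 1.79, Aldh1a3 from -1.36 to -0.55, Mmp3 from 1.15 to 0.82, Icam1 from 1.53 to 0.99 and Cdkn1c from -1.02 to -0.51 (log2 ratio). The cause was not tested. No paired analysis was possible because each stage had 1 library. With 1 library per stage, depth limits single rare genes, and the spread between animals was not measured.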
